A study of Mus musculus with 2 samples.

Results

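Clustered Zfp genes are taken here as the protein-coding mouse genes with a symbol of Zfp and digits that have 3 or more other such genes starting within 500 kb on the same chromosome, Zfp42 left aside. In the GENCODE M21 annotation of GRCm38, the assembly that mm10 names, 176 of 364 genes with such a symbol met this rule, out of 21911 coding genes in all. The other 188 are called isolated below. Members whose starts lay within 500 kb of each other were joined, which gave 23 clusters on chromosomes 2, 4, 6, 7, 8, 9, 10, 13 and 17. Of these, 19 held 4 or more members and 170 members in all. The other 4 clusters held 1 or 2 members each, since a neighbour that counts toward the rule need not meet it itself.

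Most genes of this kind encode C2H2 zinc finger proteins, in which each finger is folded around a zinc ion and a row of fingers reads a DNA sequence. Many also carry a KRAB domain, which recruits the corepressor TRIM28 and through it the H3K9 methyltransferase SETDB1 and HP1 proteins, and in embryonic stem cells such proteins are known to silence retrotransposons. The genes arose by repeated tandem duplication, so neighbours resemble each other, and as a rule the KRAB domain lies on short inner exons and the whole row of fingers on a long last exon. H3K36me3, trimethylation of lysine 36 of histone H3, is laid down by SETD2 behind elongating RNA polymerase II and marks transcribed gene bodies, increasingly toward their 3′ ends.

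The mark was mapped by chromatin immunoprecipitation and sequencing in untreated E14TG2a.4, a male embryonic stem cell line of mouse strain 129/Ola, which the labels call embryonic and 3.5 day in age. The samples are 1 group of 2 biological replicates of this single line, so the comparisons are those between genes, between parts of genes and between replicates. The deposited peaks of replicate 1 numbered 107779 and covered 139 Mb, and those of replicate 2 numbered 98185 and covered 127 Mb, while the number of reads behind them is unknown. All 8 embryonic stem cell marker genes examined, among them Pou5f1, Nanog and Sox2, were marked, as defined below. None of 8 fibroblast feeder genes and none of 6 primitive endoderm genes had a covered base in either replicate. As the background, 37.2% of all 21911 coding genes were marked, and 50.1% lacked peaks over the whole body in both replicates. Absence of cover was thus common, so the feeder and endoderm lists show little by themselves.

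The sequences that the results turn on are the finger repeats of the last exon. Stretches from 5 members are given 5′ to 3′ on the coding strand of GRCm38, with the codons of the linker that joins neighbouring fingers, threonine-glycine-glutamate-lysine-proline, in capitals. Each stretch spans 183 bases, from 1 linker over 2 repeats to the third linker; a repeat need not hold an intact finger. The first 3 members had the largest difference in cover between the last exon and the rest of the gene by the lower of the replicates, and the stretch shown lay wholly inside peaks in both replicates.
Zfp27, chr7:29894499-29894681, minus strand: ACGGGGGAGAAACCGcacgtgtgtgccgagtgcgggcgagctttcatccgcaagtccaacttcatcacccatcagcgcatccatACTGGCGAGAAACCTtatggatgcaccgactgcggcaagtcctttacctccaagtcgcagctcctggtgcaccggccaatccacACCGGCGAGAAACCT
Zfp936, chr7:43189876-43190058, plus strand: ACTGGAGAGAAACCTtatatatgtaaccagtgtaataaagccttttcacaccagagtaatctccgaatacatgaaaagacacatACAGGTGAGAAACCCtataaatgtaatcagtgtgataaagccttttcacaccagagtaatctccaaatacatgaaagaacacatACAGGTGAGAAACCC
Zfp14, chr7:30038134-30038316, minus strand: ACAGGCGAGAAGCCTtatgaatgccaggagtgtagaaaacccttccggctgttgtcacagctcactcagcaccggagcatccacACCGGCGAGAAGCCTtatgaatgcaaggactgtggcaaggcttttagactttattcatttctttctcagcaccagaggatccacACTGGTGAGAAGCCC
The next 2 members, a pair that makes up a chromosome 2 cluster of its own, had no covered base.
Zfp965, chr2:175479813-175479995, plus strand: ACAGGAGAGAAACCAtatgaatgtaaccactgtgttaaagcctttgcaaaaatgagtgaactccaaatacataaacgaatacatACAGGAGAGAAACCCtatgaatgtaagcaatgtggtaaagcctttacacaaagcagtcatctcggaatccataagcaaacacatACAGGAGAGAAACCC
Zfp969, chr2:175693800-175693982, minus strand: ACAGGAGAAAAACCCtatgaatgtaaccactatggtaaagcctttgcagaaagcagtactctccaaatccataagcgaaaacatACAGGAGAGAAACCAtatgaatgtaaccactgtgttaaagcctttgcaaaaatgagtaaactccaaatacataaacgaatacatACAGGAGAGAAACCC
All 152 of the overlapping 32-base words in the Zfp27 stretch, and all 152 in that of Zfp14, are single in the genome, counting both strands. In the Zfp936 stretch 101 of 152 words occur once. None of the words in the other 2 stretches does: a word from the Zfp965 stretch occurs 9 times in the median and up to 41 times, and a word from the Zfp969 stretch 7 times in the median and up to 30 times.

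The covered share of a gene, the percent of bases of its annotated body that lie in peaks, varied widely among the members. Its median over the 176 members was 19.4% in replicate 1 and 15.3% in replicate 2 (17.3% ± 2.88, mean and SD, n = 2). The quartiles were 2.34% and 41.8% in replicate 1 and 1.04% and 37.0% in replicate 2. Genes with 10% or more of the body in peaks in both replicates are called marked. This held for 100 of 176 members (56.8%), for 118 of 188 isolated Zfp genes (62.8%) and, as the background, for 37.2% of all 21911 coding genes. High cover was less frequent: 30 members (17.0%) reached 50% of the body in each replicate, beside 26.1% of isolated Zfp genes and 19.3% of all coding genes. At the other end, 33 members (18.8%) had no covered base in either replicate, beside 20.7% of isolated Zfp genes and 50.1% of all coding genes. The share of members marked thus lay above the background of coding genes, and their share with high cover did not. The median covered share of the isolated Zfp genes was 30.6% and 25.7% in replicates 1 and 2. No test of these differences was made, since the lists were drawn up with results of these data known.

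The members with the highest cover carried the mark over most of the gene. Zfp568, known as a KRAB repressor of the placental promoter of Igf2, had 88.9% (replicate 1) and 89.0% (replicate 2) of its body in peaks. Zfp110, also known as Nrif, which binds the neurotrophin receptor p75, reached 89.5% and 86.5%. Zfp646, which has the most fingers of any member, reached 85.3% and 84.9%. Zfp599, Zfp266 and Zfp626 were covered to 85.8% and 85.2%, 84.3% and 82.3%, and 87.9% and 80.2%, in the same order of replicates. By the lower of the replicates these are the 6 highest members, and the largest difference between replicates among them is that of Zfp626, 7.70 points. Zfp626 is also the exception among them in that its last exon (71.8% and 56.3%) was less covered than the rest (95.6% and 91.6%).

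Around the threshold the members formed a continuous series. Just above it lay Zfp30 (10.1% and 15.3% in replicates 1 and 2), Zfp583 (11.7% and 10.2%), Zfp94 (14.4% and 11.4%), Zfp65 (14.4% and 11.9%) and Zfp936 (12.0% and 14.6%). Just below it lay Zfp759 (9.98% and 11.4%), Zfp976 (9.65% and 10.5%), Zfp953 (14.3% and 9.37%), Zfp667 (12.1% and 9.02%) and Zfp658 (8.87% and 10.9%). Of the 76 unmarked members 9 reached 10% in a single replicate, 5 of them in replicate 1. The count of marked members was 114 at a threshold of 5% of the body and 67 at 25%.

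**Figure D1:**
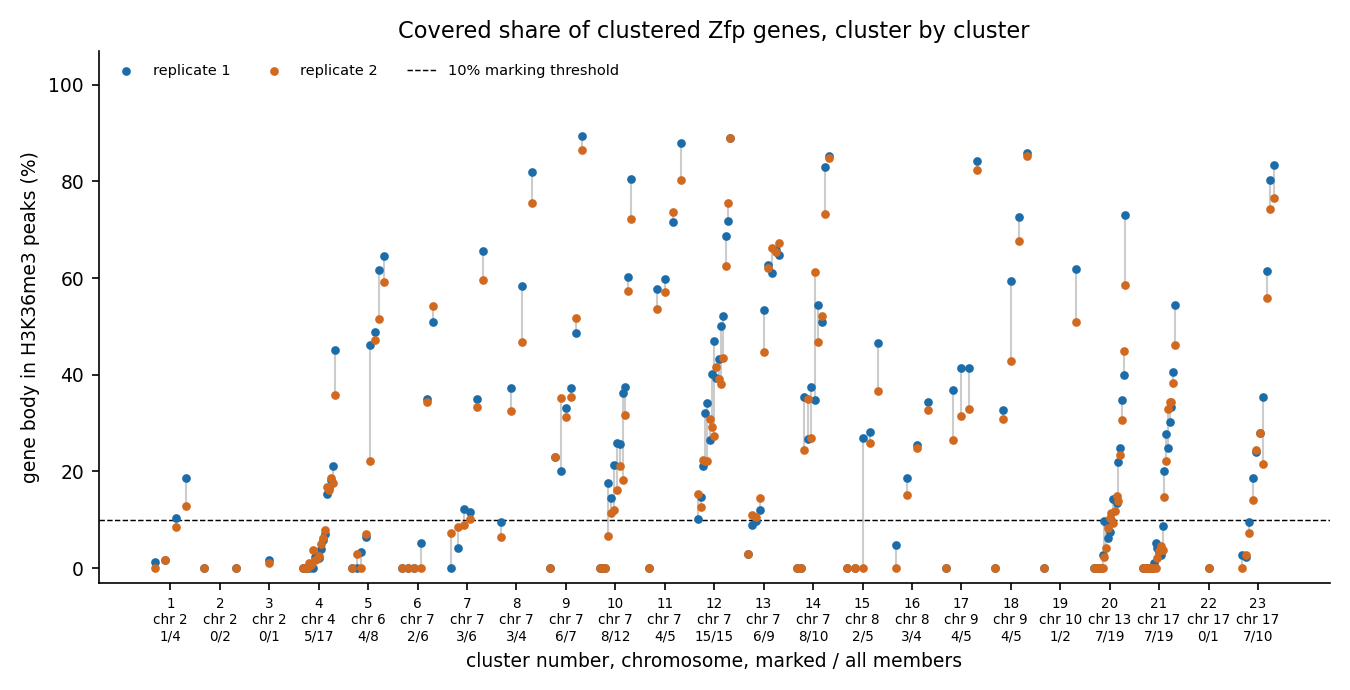
Each pair of points is 1 member, with the percent of its gene body in H3K36me3 peaks in replicate 1 (blue) and replicate 2 (orange) joined by a grey line, and the members sorted within each cluster. The label under each cluster gives its number, its chromosome and the marked and all members; the dashed line is the 10% threshold, and in 19 of the 23 clusters members lie on both sides of it.

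Within marked members the last exon, where the fingers are as a rule encoded, was more densely covered than the rest of the gene. Most covered bases still lay outside it: it holds 16.6% of the members' bases and 25.3% and 27.3% of their covered bases. A denser last exon was general to marked genes. Over all marked coding genes it holds 5.02% of bases and 7.18% and 7.60% of covered bases, and in marked isolated Zfp genes 10.2%, and 15.2% and 16.2%. The last exon was that of the principal coding transcript of each gene, and its median length was 2556 bp in the members and 1164 bp over all coding genes. In the 100 marked members its median cover was 77.1% in replicate 1 and 73.6% in replicate 2, against 33.1% and 28.9% of the rest of the gene body. The difference within a gene had a median of 36.5 and 33.7 points (35.1 ± 1.98, n = 2). With bases pooled over the 100 genes, 63.6% and 62.8% of the last exons and 37.4% and 33.3% of the rest were covered. The last exon was the more covered part in both replicates in 77 of the 100 members, against a background of 72.9% of 7981 marked coding genes with 2 or more exons and 94 of 118 marked isolated Zfp genes. The direction of the difference was thus about as frequent as in other marked genes. Its size was larger in the median than over all marked coding genes, where it was 21.8 and 23.6 points, and the isolated Zfp genes were at 29.1 and 31.4 points. With only last exons of at least 1 kb, the medians were 38.5 and 38.1 points for 94 members and 20.1 and 21.1 points for 4525 coding genes. The larger median difference went with a less covered rest, and not with a more covered last exon. Over all marked coding genes the last exon had a median cover of 89.98% and 89.02%, and the rest 54.29% and 49.98%. Both parts were thus less covered in the members. With bases pooled, all marked coding genes had 67.3% and 65.5% of last exons and 45.9% and 42.1% of the rest covered.

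The gene by gene values show how sharply cover could be divided. In Zfp27, a gene with 21 fingers, 97.3% (replicate 1) and 100% (replicate 2) of the last exon lay in peaks, while the rest of the gene was covered to 4.95% and 9.71%. In Zfp936, whose body spans 77881 bp, the last exon was covered to 91.1% and 94.6% and the rest to 8.99% and 11.6%. In Zfp14 the last exon was at 97.3% and 93.8% and the rest at 15.5% and 3.82%. In each of these 3 genes both values of the last exon lay far above both values of the rest. The next largest differences, again by the lower of the replicates, were those of Zfp866, Zfp748, Zfp472, Zfp87, Zfp551, Zfp382 and Zfp146, with last exons covered to between 73.9% and 100% in each replicate. In 27 of the 100 marked members the difference exceeded 50 points in both replicates. In 11 of the 100 the rest of the gene stayed under 10% in both replicates. Neither count was set beside the same count over all marked coding genes, so neither sets the members apart. Zfp708, which binds a class of retrotransposon and was picked for naming after its values were seen, had 82.7% and 75.6% of the last exon and 17.0% and 8.84% of the rest in peaks, and its span overlaps those of 2 other coding genes.

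**Figure D2:**
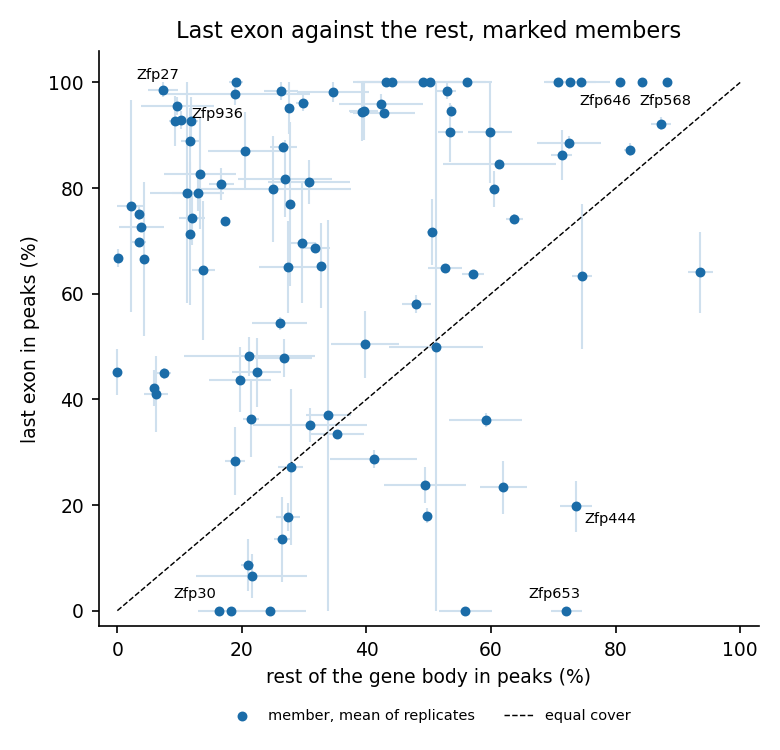
Each point is 1 of the 100 marked members, with the percent of the rest of its gene body in peaks on the x axis and the percent of its last exon on the y axis, both as means of the 2 replicates, whose values are joined by the light lines. Most points lie above the dashed line of equal cover, from Zfp27 and Zfp936 at the upper left to Zfp568 at the upper right, while Zfp653, Zfp444 and Zfp30 lie below it.

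Cover rose gradually toward the last exon and stepped up at its start. Of the bases of the marked members in the bin of 250 bp that begins 6000 bp before that start, 40.3% and 36.3% were covered. In the bin that begins 1000 bp before it 62.1% and 53.3% were. Over all marked coding genes these bins were at 62.7% and 59.9%, and at 72.9% and 71.1%. In the 250 bp before that start, 71.1% and 62.8% of bases in the 100 marked members were covered, and in the first 250 bp of the exon 81.9% and 83.1%. Over all marked coding genes the same windows gave 79.6% and 79.6%, then 83.2% and 84.5%. Cover of the members' last exons stayed between 81.5% and 85.5% as far as 1250 bp and then dropped, to 49.8% and 46.8% between 2500 and 2750 bp. All marked coding genes were at a similar 52.6% and 48.5% in that last bin. Split at the stop codon, the coding part of the members' last exons was covered to 80.9% and 83.1% and the 3′ UTR part to 48.6% and 45.2%, a difference of 35.1 ± 3.94 points (n = 2). Over all marked coding genes these parts were at 83.8% and 85.7%, and 64.0% and 61.6%. The coding part of the last exon was thus covered about as fully in the members as in other marked genes, and the 3′ UTR part less fully, which is a description without a test.

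**Figure D3:**
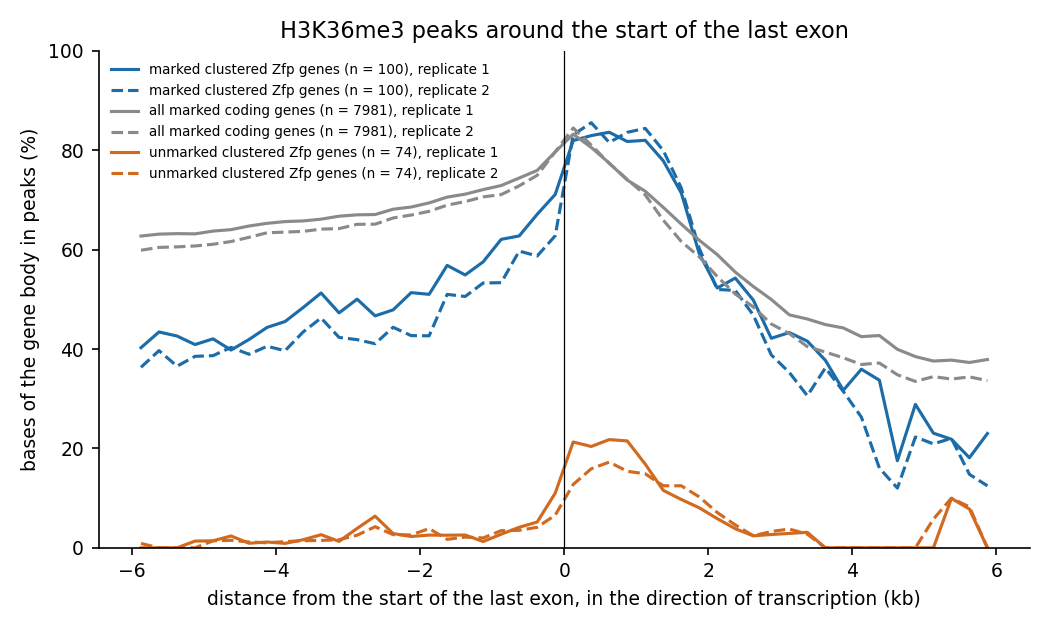
The x axis is the distance in kb from the start of the last exon, in the direction of transcription, and the y axis is the percent of gene body bases in peaks, in bins of 250 bp, for marked members (blue), all marked coding genes (grey) and unmarked members (orange), with replicate 1 solid and replicate 2 dashed. The members rise to over 80% just inside the last exon and stay there past 1 kb, while the grey line descends from its highest value at the exon's start; the number of genes with bases in a bin falls toward the right, to 12 marked members in the last bin.

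Other parts of the marked members ordered as follows. First exons had 2.83% and 3.14% of their bases in peaks, and the 500 bp on either side of the annotated start 1.29% and 1.41%. The inner exons, which as a rule hold the KRAB domain, were covered to 67.6% and 65.2%, the last intron to 60.3% and 53.5% and the earlier introns to 38.4% and 34.0%. Over all marked coding genes the inner exons were at 80.4% and 80.5%, the last intron at 60.9% and 57.5% and the earlier introns at 45.6% and 41.3%. Low cover at the 5′ end was general: their first exons were at 4.77% and 4.63%. The 500 bp on either side of their starts were at 2.18% and 2.09%. Downstream of 73 marked members with 5 kb free of coding genes, 8.72% and 7.27% of that flank was covered, against 20.0% and 17.2% for 3750 coding genes. Peak summits leaned toward the last exon less than covered bases did. In replicate 1 131 of 608 summits and in replicate 2 125 of 569 lay in it (21.5% and 22.0%). The last exon holds 16.6% of body bases and 25.3% and 27.3% of covered bases. In marked isolated Zfp genes 12.4% and 12.8% of summits lay in the last exon, beside 10.2% of body bases. The members' peaks with the summit in the last exon had a median width of 1389 and 1417 bp, against 721 and 659 bp for peaks with the summit elsewhere in the gene. The authors' fold enrichment, averaged over covered bases, was 7.01 and 8.59 in last exons and 6.23 and 7.73 in the rest. The fold of a peak is the deposited value of that peak and was not compared between replicates.

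In 16 of the 100 marked members the rest of the gene was the more covered part in both replicates. Zfp653 had no covered base in its last exon of 434 bp and 74.5% and 69.6% of the rest in peaks. Zfp771 had none in its last exon of 999 bp, which holds all 8 of its fingers, and 60.1% and 51.7% of the rest. Zfp444 (24.5% and 15.0% of the last exon, 76.2% and 71.1% of the rest), Zfp865 (28.4% and 18.3%, 58.2% and 65.8%) and Zfp628, a spermiogenesis factor also known as Zec (19.4% and 16.6%, 49.2% and 50.3%), had the next largest differences of this direction. None of these 5 genes matched the pattern used for a KRAB domain. Among all 16 genes 9 matched it (56.3%), and among the 77 with the more covered last exon 56 did (72.7%). The median share of unique 32-base words in the last exon was 95.0% in the 16 genes and 97.1% in the 77. In the remaining 7 marked members the replicates differed in direction or a part was equal. Zfp809, known for silencing murine leukaemia virus in embryonic stem cells and named after its values were seen, is of this kind: its annotated last exon is 321 bp long and holds none of its 7 fingers, and lay wholly in a peak in replicate 1 and in none in replicate 2, while its whole body was covered to 59.5% and 42.7%.

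Some members that missed the threshold still carried peaks over the finger exon. Of 74 unmarked members with 2 or more exons, 22 had at least 10% of the last exon in peaks in each replicate (29.7%), beside 18 of 67 unmarked isolated Zfp genes (26.9%) and a background of 6.28% of 12317 unmarked coding genes. Zfp976 is an example, with 75.9% and 92.8% of the last exon and 6.02% and 6.03% of the rest in peaks. Over the 22 genes the median cover, as the mean of the replicates, was 26.7% of the last exon and 1.72% of the rest.

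Clusters differed in how many of their members were marked, and nearly all were mixed. Marked and unmarked members stood side by side in 19 of the 23 clusters. A single cluster, on chromosome 7 from 29768552 to 30169750, had every member marked, 15 of 15. The 3 clusters with no marked member held 1 or 2 members each. In the 401 kb of the fully marked cluster the members lay on both strands, and their covered shares ran from 10.1% and 15.3% in Zfp30 to 88.9% and 89.0% in Zfp568. Zfp84 (68.8% and 62.5%) and Zfp566 (71.8% and 75.5%) were also covered over most of their length. In Zfp420 (14.7% and 12.6%), with 19 fingers, the last exon was covered to 69.9% and 69.7% and the rest to 4.67% and 2.23%. In 14 of the 15 genes the last exon was the more covered part in both replicates. Over all marked coding genes with 2 or more exons that share was 72.9%. Zfp30, whose last exon had no covered base, was the exception in the cluster. The coding gene Gm26920, whose span overlaps Zfp82 and Zfp566, was the only other coding gene within the cluster.

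**Figure D4:**
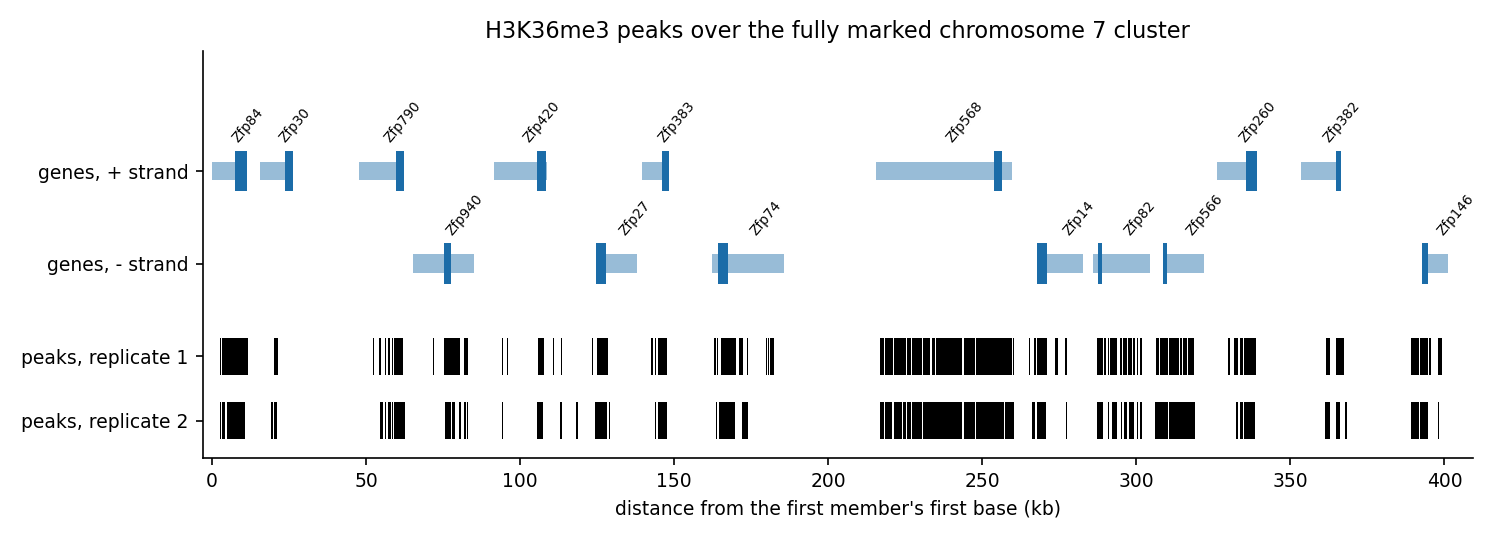
Members of the fully marked chromosome 7 cluster are drawn to scale by strand, with the last exon as a taller dark block, above the H3K36me3 peaks of each replicate in black, against the distance in kb from the first base of the first member. The peaks fall on the members and leave most of the space between them empty, and in Zfp27, Zfp420 and Zfp14 most of the covered length lies at the last exon, while in Zfp568 they run along the gene and in Zfp30 they miss the last exon; Gm26920, which overlaps Zfp82 and Zfp566, is not drawn.

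Chromosome 7 held 9 of the clusters and 74 of the members, of which 55 were marked (74.3%), against 45 of 102 members on other chromosomes (44.1%). The clusters with the most marked members among those of 4 or more, after the fully marked one, were 6 of 7 in the chromosome 7 cluster from 12415153 to 12985714, with Zfp110 and Zfp606 highest, 8 of 10 in the last cluster of chromosome 7, with Zfp646 and Zfp553 highest, and 4 of 5 in the chromosome 7 cluster of Zfp626 and Zfp59 and in each of the 2 clusters of chromosome 9. The 3 largest clusters had fewer of their members marked. Of the 17 members on chromosome 4, 5 were marked, with Zfp981 highest at 45.1% and 35.9% and Zfp986 lowest at 0% and 1.01%. In the cluster of chromosome 13, 7 of 19 members were marked, led by Zfp459 at 73.0% and 58.6%. In that of chromosome 17 from 21008903 to 22456689, 7 of 19 were marked, led by Zfp51 at 54.5% and 46.1%, and 6 had no covered base. The other large cluster of chromosome 17 had 7 of 10 marked, led by Zfp871 and Zfp870. The chromosome 2 cluster from 150114406 to 150485091 had 1 of 4 marked, Zfp345, at 18.7% and 12.8%.

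The space between genes inside the clusters held few peaks. Over 6086 kb between the first and last base of a cluster and outside any coding gene, 1.83% of bases were covered in replicate 1 and 1.64% in replicate 2 (1.74% ± 0.134, n = 2), against 23.6% and 21.5% of the members' bodies with all bases pooled. In the genome outside coding genes as a whole 0.520% and 0.465% were covered. Other coding genes lying wholly inside the clusters numbered 118, of which 52 were marked (44.1%). Of the 28 among them with 3 or more fingers, 16 were marked. In 15 of these 16 the last exon was the more covered part in both replicates, beside 72.9% of all marked coding genes with 2 or more exons. Of the 82 with fewer fingers 30 were marked, and of 8 without an annotated coding transcript, whose fingers were not read, 6 were. The last cluster of chromosome 7 held 18 of the 52 marked neighbours, among which Fbrs, Srcap, Rnf40 and the H3K4 methyltransferase gene Setd1a, all without fingers, were covered to between 87.9% and 94.9% in each replicate.

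Cover tended to be lower in members with more repeated sequence. Members are near-copies of each other to differing degrees, and a read from a repeated stretch cannot be placed by sequence alone. In each member the percent of 32-base words in the gene body that occur once in the genome was taken as its uniqueness, with a median of 88.7% over the 176 members. Of 15 members under 20%, 1 was marked, and of 11 from 20% to under 50%, 5 were. From 50% to under 80% it was 14 of 37, from 80% to under 90% 24 of 39, and from 90% up 56 of 74. With the members under 80% left out, 80 of 113 were marked (70.8%) and the median covered share was 33.3% and 27.4%. Among those under 80% it was 20 of 63 (31.7%) and 3.41% and 3.72%. This direction was not particular to the members. Of isolated Zfp genes 67.5% were marked at 80% or more and 35.7% under 80%, and of all coding genes 42.2% and 9.18%. Across the 176 members uniqueness and the mean covered share had a Spearman correlation of 0.41, a description only, since the members share libraries and sequence. The cluster of chromosome 4 had a median uniqueness of 8.46%, the pair of Zfp965 and Zfp969 was at 0%, and the fully marked cluster had 91.1%. The members on chromosome 7 had a median uniqueness of 91.9% and those on other chromosomes 80.3%. How much of the difference between clusters comes from reads that could not be placed was not tested.

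Low uniqueness was not present in every unmarked member. Among the 33 members without a covered base, 13 had at least 80% unique words: Zfp467, Zfp579, Zfp784, Zfp580, Zfp128, Zfp112, Zfp575, Zfp974, Zfp768, Zfp963, Zfp677, Zfp820 and Zfp40. All words sampled in Zfp580 and Zfp768 were unique. Conversely, last exons were as a rule more unique than the rest of the same genes, with medians of 96.9% and 90.3% in the marked members. When the 80 marked members with at least 80% unique words were taken alone, 62 had the more covered last exon in both replicates, and the median difference was 35.7 ± 2.87 points (n = 2). For isolated Zfp genes with at least 80% unique words 108 of 160 were marked (67.5%), and for all coding genes, sampled at 200 words each, 42.2%. The cells are of strain 129/Ola and the reference is of C57BL/6J; differences between the strains in the copies present were not tested.

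**Figure D5:**
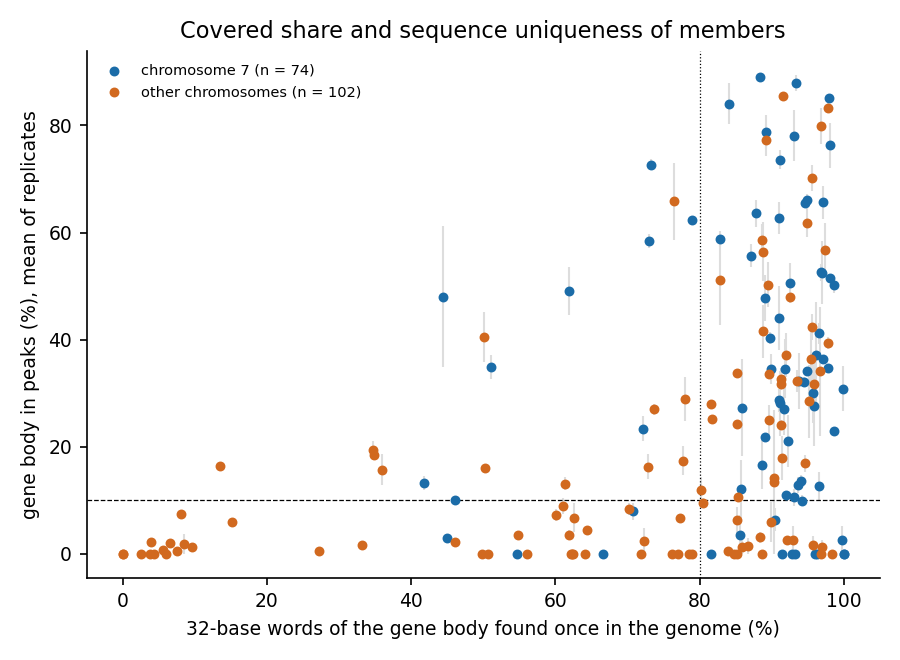
Each point is 1 of the 176 members, with the percent of 32-base words of its body found once in the genome on the x axis and its covered share, as the mean of the replicates, on the y axis; grey lines join the replicates. The dashed line is at 10%. Of 15 members under 20% unique 1 was marked, and of 11 from 20% to under 50% 5 were. To the right of the dotted line at 80% cover runs from 0 to 89.0%.

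The number of fingers and the KRAB domain, read from the coding sequence, moved little with cover, with a Spearman correlation of 0.028 between the number of fingers and the mean covered share over the 176 members, given as a description. The 176 members encode 2058 fingers of the C2H2 pattern, of which 1997 (97.0%) lie on the last exon, and 168 members have all their fingers there. The median is 12 fingers. Of members with under 6 fingers 9 of 18 were marked, with 6 to 9 fingers 18 of 33, with 10 to 13 fingers 41 of 66 and with 14 or more 32 of 59. Zfp646, with 27 fingers of which none lies on its last exon of 554 bp, Zfp748 with 23 and Zfp26 with 22 had the most. Zfp748 was covered to 34.7% and 30.7% over its body and to 97.4% and 87.9% over its last exon. Zfp26 was covered to 41.3% and 33.0% over its body and to 27.0% and 30.4% over its last exon, which at 10212 bp is long. The annotated coding sequence starts with ATG in whole codons in 173 of the 176 members, and in the others fingers may be missed. The 3 members in which no finger was found, Zfp781, Zfp972 and Zfp986, were covered to at most 1.64%. Their uniqueness was also low, at 3.75%, 9.66% and 7.57%, and of the 15 members under 20% unique only 1 was marked. A match to the start of the KRAB box was found in 129 members, of which 70 were marked (54.3%), against 30 of the 47 without a match (63.8%). Among members with at least 80% unique words the shares were 51 of 74 and 29 of 39.

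Genes listed for the KRAB repressor pathway and silent chromatin, with Setd2 among them, were covered more fully than the zinc finger genes. Of the 23 listed genes 21 were marked, beside the 37.2% of all coding genes, with a median covered share of 76.9% and 74.9%. Trim28, the corepressor that binds KRAB domains, was covered to 27.1% and 27.5%, and Setdb1, the H3K9 methyltransferase it brings, to 88.2% and 84.7%. The HP1 genes Cbx1, Cbx3 and Cbx5 were at 82.6% and 72.5%, 76.9% and 77.5%, and 58.6% and 54.6%. Chd4, the remodeller of the NuRD complex, was at 95.0% and 94.1%, while its relative Chd3 had no covered base. Setd2, which places H3K36me3, was at 62.8% and 53.0%. The other gene below the threshold was Pphln1, of the HUSH silencing complex, at 15.7% and 7.67%, while its partner Mphosph8 was at 91.4% and 88.9%.

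The replicates ranked the members alike, with a Spearman correlation of 0.96 over the 176 genes, given as a description. Replicate 1, which has the larger peak set, was higher in 100 members, replicate 2 in 43, and in 33 both were at 0. In the marked members the median absolute difference was 4.59 points, beside 3.68 points over all marked coding genes. The largest differences were those of Zfp869 (26.9% in replicate 1 and 0% in replicate 2), Zfp747 (34.8% and 61.2%), Zfp956 (46.2% and 22.1%), Zfp146 (46.9% and 27.4%) and Zfp109 (36.3% and 18.3%). In Zfp869 84.3% of the last exon lay in peaks in replicate 1 and 0% in replicate 2.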

How the data were processed

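H3K36me3 was measured by ChIP-seq in 2 biological replicates of 1 group. The deposited narrow peak lists on mm10 were used: the authors' peaks supported by pseudoreplicates of each replicate in the main analysis, the other deposited sets as alternatives. Each deposited peak carries the authors' fold, which is a ratio over background, and its significance as −log10 of p-values and q-values. Aligner, caller, read length and depth: not given in the sources used here.

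Covered bases were counted with numpy 2.4.6 over GENCODE M21 gene bodies. Of repeated symbols only the longest record was used (27 dropped). The last exon was that of the transcript with the principal tag and the longest coding sequence. Uniqueness came from counts of 32-base words over both strands of the GRCm38 reference, 1 word each 10 bases in members. Fingers and the KRAB box were found in translated coding DNA, since a protein table was not used here. The counting of covered bases was tested on simulated peaks and random intervals. The word counts, the reading of fingers and the KRAB box, and the cluster rule were not tested in this way.

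No test was made, and the SD over n = 2 replicates is the error given. The members and lists were chosen with earlier results of these data known. Named genes were the 2 highest and the lowest of each cluster, those with the 10 largest and 5 smallest differences between last exon and rest, the 5 largest replicate differences, 5 on each side of the threshold, the 3 with most and fewest fingers, and pathway genes; not every one is reported, and a few more were picked once values had been seen.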

Additional observations from a re-analysis of the deposited data

How the results depend on the processing

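The differences between parts of genes kept their sign under the alternatives run, all of which were planned. The other results are shares or counts, which cannot change sign. Counts stayed within 1.5 times except that 30 members passed a threshold of 50% of the body in place of 100. The SD of 2 replicates is small, so values often moved by more than it. The difference between last exon and rest was 27.9 points with pooled bases and 35.1 in the median over genes. With the unthresholded peaks it was 25.05 and 31.5 points. The median became 39.1 points for peaks with −log10 q of at least 5, 37.8 for the main run's set of peaks found in both replicates, 32.5 for the pooled set, 39.2 with neighbours within 1 Mb and 38.3 with last exons of at least 1 kb. With the last exon block merged over transcripts the values were 24.8 and 28.8. Against only the 3′ part of the gene, from its midpoint, they were 24.2 and 24.1, with 59 genes in place of 77 higher in the last exon. A gene whose last exon fills that part has no rest to compare and cannot be among the 59. Such genes were not counted, so the lower count does not show how many genes changed direction. The median covered share, 17.3%, became 24.1%, 24.9% and 24.4% in the main run's, the other run's and the pooled combined sets, and 30.3% with members of at least 80% unique words, where the pooled difference was 24.3 points. The share of summits in the last exon, 21.8%, became 23.0% in the stricter set, 23.3%, 22.3% and 22.2% in the combined sets, 22.1% without overlapping genes, 23.8% with unique members and 22.6% with neighbours within 250 kb. The covered space inside clusters, 1.74%, became 1.92% in the unthresholded and 1.54% in the stricter set, and 2.40%, 2.05% and 2.41% in the combined sets. With 24-base words median uniqueness was 81.0% in place of 88.7%. Leaving out either replicate gave 104 to 105 marked members, a pooled difference of 26.0 to 30.3 points and 22.0% to 22.5% of summits. The cause of these shifts was not tested. No paired analysis was possible because the samples form a single group. The unknown depth limits what an absent peak can show.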
